A study of Homo sapiens with 4 samples.

Results

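Aclarubicin-only regions are stretches of the K562 genome whose ATAC-seq signal was listed as gained over untreated cells with aclarubicin and with neither of the other anthracyclines in the series. They were chosen as the regions of the aclarubicin list whose chromosome, start and end stand in neither the doxorubicin list nor the N,N-dimethyldoxorubicin list. There were 13841 of them among 61295 regions of the aclarubicin list and among 100205 regions in any list. They made up 22.6% of the aclarubicin list (95% Wilson interval 22.3 to 22.9) and 17.3% of its covered length, with 10.0 Mb of 57.9 Mb. K562 is an established human chronic myelogenous leukaemia cell line. ATAC-seq marks accessible DNA by the places where a transposase can insert sequencing adapters. The groups were cells given aclarubicin (Acla) at 20 µM for 4 h, cells given N,N-dimethyldoxorubicin (diMe-Doxo) at 10 µM for 4 h, cells given doxorubicin (Doxo) at 10 µM for 4 h, and untreated control cells, with 1 GEO sample in each. The Acla dose was not matched by the other drugs, so dose and compound cannot be told apart in what is listed for Acla alone.

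Anthracyclines slide their flat ring system between the base pairs of DNA. Doxorubicin also traps topoisomerase II on cut DNA and so leaves double-strand breaks. Aclarubicin, which carries a longer sugar chain, is known to loosen or evict histones from nucleosomes with few or no such breaks. N,N-dimethyldoxorubicin, whose sugar amine is dimethylated, is known to behave like aclarubicin in this respect. Both differ from doxorubicin in the breaks, and histone loss is not particular to them. DNA freed from nucleosomes can be reached by the transposase, so loss of histones is one way in which ATAC-seq signal can rise. Each list answers which regions gained ATAC-seq signal with a drug over untreated cells.

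Each list holds values of 2 treated and 2 control libraries, and the control reads were identical in the Acla and Doxo lists at all 32787 regions they share and in the Acla and diMe-Doxo lists at all 43402 they share. Nothing in the labels tells whether the pair of libraries within a group stems from separate cultures, so their spread may be technical. Within the Acla list the Acla libraries held 7266289 and 5858214 reads and the control libraries 147816 and 128353. Reads outside the list are not counted in these totals, so total depth is not known. At Acla-only regions the Acla libraries held 1139912 and 820956 reads and the control libraries 31504 and 25749. Because the rule used the Acla to control contrast, the values of that contrast below are a description and carry no test. Signal with Doxo and diMe-Doxo is not given at these regions, so a gain below the limits of those lists is possible there, and no difference between drugs was tested.

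Acla-only regions carried moderate Acla signal over a control with few reads. In Acla libraries 1 and 2 the lowest, median and highest signals over the 13841 regions were 7.47, 25.8 and 250 and 5.38, 18.8 and 200 normalized reads. In control libraries 1 and 2 they were 2.85, 2.85 and 108 and 2.44, 2.44 and 66.0. Both control medians equal the value of 1 read, the lowest that occurs. In control libraries 1 and 2, 63.0% and 71.7% of Acla-only regions held 1 read, while 10.0% and 9.02% held 2. A floor of 1 would give such a pile at 1, though how regions with no reads were handled is not stated. A control value of 1 may therefore stand for no reads, and the ratios and counting intervals below take it as 1 counted read. In normalized reads, 1 read counted as 0.374 and 0.384 in Acla libraries 1 and 2. It counted as 2.85 and 2.44 in control libraries 1 and 2. How far the few control reads and control peaks follow from how deeply the control was sampled was not tested. Both Acla signals lay above both control signals in each of the 13841 regions, as they did in 100% of the Acla list, so this count says nothing particular about them. The authors' deposited table gave a median log2 fold of 2.30 (mean 2.35 ± 0.38, SD over 13841 regions). The middle 80% of folds lay between 1.89 and 2.87. The same median was 2.65 at the 14667 regions listed for Acla and diMe-Doxo, 2.34 at the 4052 listed for Acla and Doxo, and 2.95 at the 28735 listed for all 3 drugs.

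**Figure D1:**
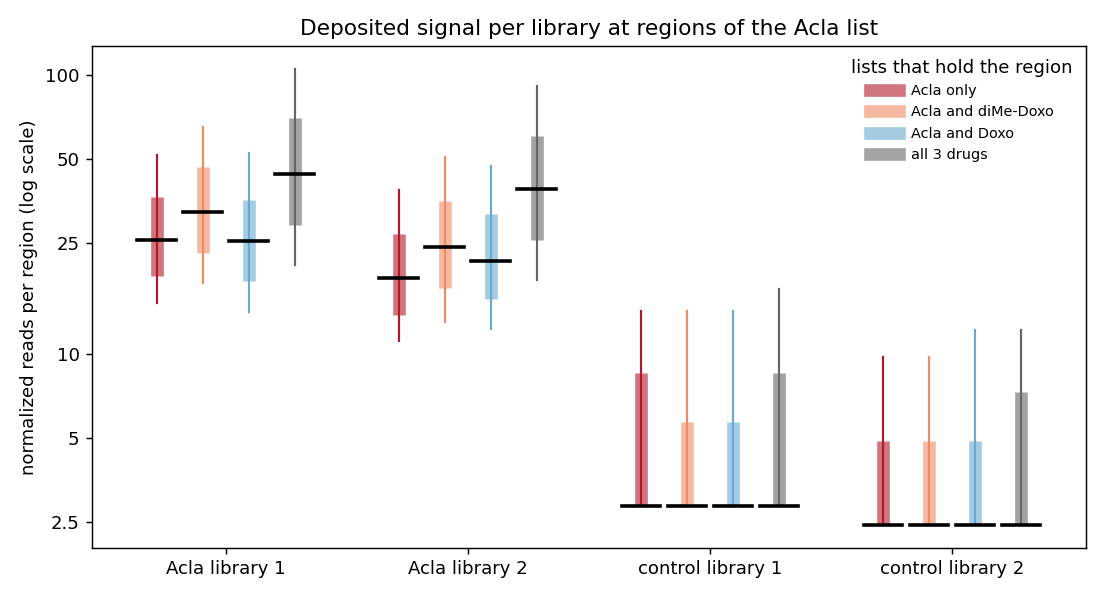
Deposited signal in normalized reads per region (log axis) in each Acla and control library, for regions of the Acla list by the lists that hold them. Black bars are medians, thick bars the middle 50% of regions and thin lines the middle 80%, and Acla-only regions have medians of 25.8 and 18.8 in the Acla libraries and of 2.85 and 2.44 in the control libraries.

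Acla library 1 was the higher of the pair at most Acla-only regions. It exceeded library 2 at 12304 of them (88.9%), with a median ratio of 1.36. Library 1 was also the higher at 78.6% of the whole Acla list and at 86.7% of regions shared with diMe-Doxo only. The median ratio was 1.34 at regions shared with diMe-Doxo only, 1.16 at regions shared with Doxo only and 1.16 at regions of all 3 drugs. The SD of log2 signal between libraries at Acla-only regions was 0.41 for Acla and 1.17 for the control. Without Acla library 1 the median log2 fold over the control was 2.05, and 635 of the 13841 regions were under 1.5, the lower limit of the list. Without Acla library 2 it was 2.498, with 7 regions under 1.5. The control libraries also differed from each other, since at 2940 Acla-only regions (21.2%) one held 1 read and the other at least 5, a share near the 21.5% of the whole Acla list. Without control library 1 the median log2 fold was 2.74, with 1374 regions under 1.5. Without control library 2 it was 2.33, with 2701 regions (19.5%) under 1.5. No region had a log2 fold at or below 0 in any of these settings. This had to be so, since both Acla signals lay above both control signals in every region. The part of single libraries in the listing of these regions was not tested beyond these values.

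The authors' deposited table gives an FDR for each region. Of the 13841 Acla-only regions, 8763 (63.3%) had an FDR of at most 0.05, against 82.0% of the Acla list, and 1491 (10.8%) had an FDR of at most 0.01, against 42.9%. The other 5078 had an FDR above 0.05, while the highest p in the list is 0.05. A log2 fold of at least 3 was held by 871 (6.29%), against 31.5% of the list. On reads recovered from the deposited signal, edgeR's quasi-likelihood test called 13835 of the 13841 higher than the control at an adjusted p of at most 0.05, against 99.8% of the list. That count depended on the libraries kept. Without Acla library 1 it was 9989 (72.2%, against 60.6% of the list), and without Acla library 2 it was 11084 (80.1%, against 68.7%). Without control library 1 it was 9686 (70.0%, against 83.8%), and without control library 2 it was 5286 (38.2%, against 65.2%). These shares rest on the libraries that chose the regions, so nothing is read from them.

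The strongest single example lay on chromosome 5 at 13835977-13837267 (GRCh37), a stretch of 1290 bp. It held 179 and 136 reads in the Acla libraries and 1 and 1 in the control libraries. Normalized, this was 66.9 and 52.3 with Acla and 2.85 and 2.44 in the control, a ratio of 22.5 with a counting interval of 6.18 to 187. Its authors' log2 fold of 4.49 and FDR of 3.12e-05 were the highest and the lowest among Acla-only regions. The nearest region of either other list lay 26.0 kb away.

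The next regions by FDR differ in how much the control already held. Chromosome 3 at 34491092-34492535 had 223 and 154 Acla reads and 1 and 3 control reads (authors' log2 fold 3.81, FDR 0.000115). Chromosome 2 at 52102182-52103693 had 136 and 102 Acla reads and 1 and 1 control reads (4.09, FDR 0.000184). Chromosome 12 at 90791408-90792690 had 179 and 139 Acla reads and 1 and 3 control reads (3.56, FDR 0.000261), and a diMe-Doxo region began 0.127 kb away. The region on chromosome 7 at 114431416-114432840 stands apart from these, since a peak had been called there in both control libraries. It held 268 and 223 Acla reads and 4 and 5 control reads, an authors' log2 fold of 2.98 (FDR 0.00027). In all of them every Acla library was above every control library, as in 100% of the Acla list. All had a peak called in both Acla libraries, as had 82.8% of Acla-only regions.

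The highest folds after these came from regions with 1 read in each control library, where the counting interval is wide. Chromosome 1 at 49796869-49797794 held 134 and 88 Acla reads (authors' log2 fold 3.99). The ratio over the control was 15.9, and read counting alone allows 4.34 to 132. Chromosome 20 at 14993103-14994550 held 128 and 94 Acla reads (3.99). Chromosome X at 4146856-4148077 held 132 and 88 (3.97). In each of the 3, library 1 was the higher Acla library.

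The regions with the most Acla signal were a different set, and their control libraries disagreed with each other. Chromosome 1 at 86620340-86623293 had the highest Acla signal of all Acla-only regions, with 670 and 521 Acla reads, and it held 38 and 10 control reads (authors' log2 fold 1.76, FDR 0.0616). A peak had been called there in both control libraries. Chromosome 4 at 143966123-143968431 had 502 and 431 Acla reads and 26 and 1 control reads (2.21, FDR 0.0759). Chromosome 8 at 139288177-139290278 had 486 and 395 Acla reads and 24 and 1 control reads (2.23, FDR 0.0686). In these regions control library 1 was the higher of the pair. Chromosome 2 at 6072697-6075038 had 479 and 366 Acla reads and 18 and 1 control reads (2.57, FDR 0.028). Chromosome 3 at 154333369-154334968 had 467 and 376 Acla reads and 20 and 1 control reads (2.42, FDR 0.042). Only the regions on chromosomes 2 and 3 among these 5 had an FDR of at most 0.05.

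The widest Acla-only region, 3358 bp on chromosome 17 at 48354838-48358196, had the opposite imbalance. It held 305 and 351 Acla reads and 1 and 22 control reads (authors' log2 fold 2.14, FDR 0.0638), so that library 2 was the higher one in both groups. The chromosome 1 region at 86620340-86623293, 2953 bp, came next in width. The third was 2696 bp on chromosome 11 at 101050560-101053256, with 368 and 248 Acla reads and 17 and 1 control reads (2.19, FDR 0.0586). A diMe-Doxo region lay 0.342 kb from it.

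At the limits of the list, members just inside had low Acla reads or a raised control. An authors' p of at least 0.045 was held by 1003 Acla-only regions (7.25%), whose median log2 fold was 1.91 and whose median Acla reads were 56 and 40. Those with the highest p, 0.05, included chromosome 10 at 83541826-83542298 with 52 and 44 Acla reads and 1 and 3 control reads (authors' log2 fold 1.84). The lowest fold, 1.51, was that of chromosome 5 at 157592951-157593791, with 117 and 101 Acla reads and 5 and 6 control reads, and of chromosome 6 at 148725659-148727279, with 117 and 100 Acla reads and 5 and 6 control reads. Just outside stand the Acla regions that entered the diMe-Doxo list with a diMe-Doxo p of at least 0.045. There were 673 of them, with a median Acla log2 fold of 2.41 and median Acla reads of 77 and 55. The 223 that entered the Doxo list at such a p had a median Acla log2 fold of 2.40. Where each control library held 1 read, the lowest authors' log2 fold listed was 2.13 for Acla, 2.13 for diMe-Doxo and 2.32 for Doxo.

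Acla-only regions were concentrated among weakly gained and narrow regions. The Acla list was cut into 10 bins of nearly equal size. Acla-only regions made up 38.1% of the bin with the lowest log2 folds (1.5 to 1.98), 39.6% of the next bin, 20.8% of the sixth and 0.310% of the bin with the highest log2 folds (3.74 to 6.28), where 19 of 6130 regions were Acla-only. Regions of all 3 drugs showed the opposite order, with 31.0% of the lowest bin and 89.2% of the highest. Fold chose the members, so this order is a description. Width, which the rule did not use directly, gave a similar order. Acla-only regions made up 41.5% of the narrowest bin (82 to 454 bp) and 5.77% of the widest (1554 to 5231 bp). Their median width was 655 bp, with the middle 80% between 387 and 1160 bp, against 821 bp for regions shared with diMe-Doxo only, 718 bp with Doxo only and 1019 bp with all 3 drugs. In each of 5 bins of log2 fold Acla-only regions had the lowest median width, while the order of regions shared with diMe-Doxo only and with Doxo only was not the same in every bin. Between log2 folds of 2 and 2.5 the median width was 617 bp at 7088 Acla-only regions, 776 bp at regions shared with diMe-Doxo only, 656 bp with Doxo only and 919.5 bp with all 3 drugs. Signal per length differed less than width did, with medians of 40.5 and 29.7 normalized reads per kb in the Acla libraries at Acla-only regions, against 46.9 and 41.2 at regions of all 3 drugs. Regions are not replicates, and no test was made between these classes. How the ends of a region were set is not stated, and peaks of another drug may have widened a region shared with it. Width can therefore not be read as a trait of Acla-only regions.

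**Figure D2:**
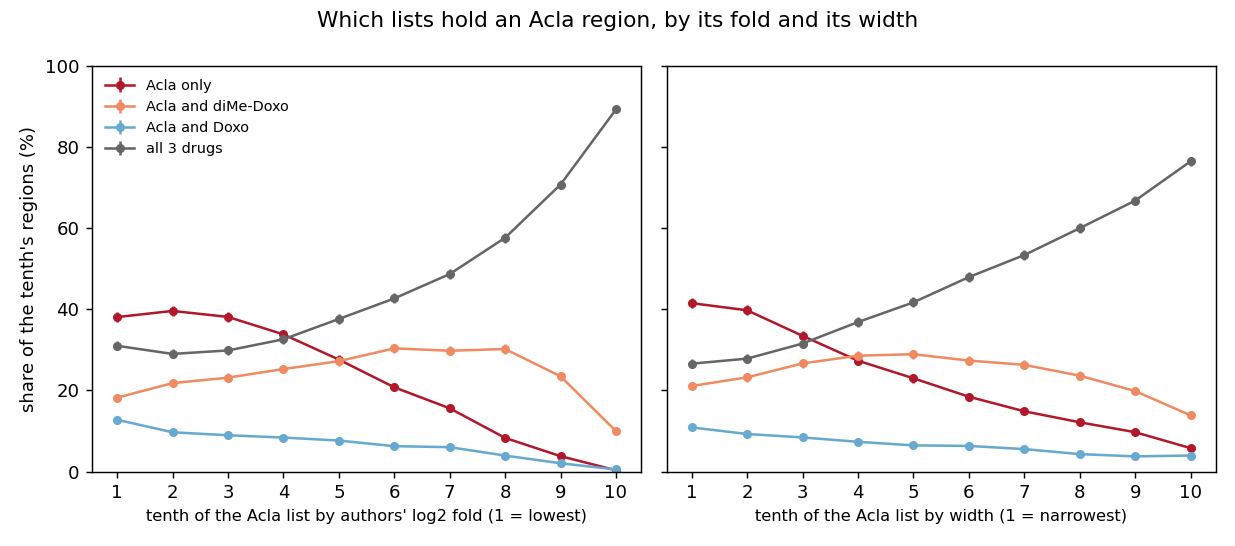
Share of the regions (%) in each of 10 bins of the Acla list that were Acla-only or shared with other lists, with bins set by the authors' log2 fold (left) and by width (right); lines on the points are 95% Wilson intervals. The Acla-only share is 38.1% in the lowest bin by fold and 0.310% in the highest, and 41.5% in the narrowest bin and 5.77% in the widest.

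Peak calls at Acla-only regions were made in the Acla libraries and rarely in the control. A peak had been called in both Acla libraries at 11465 of them (82.8%, Wilson interval 82.2 to 83.5), in library 1 alone at 1305, in library 2 alone at 973 and in neither at 98 (0.708%). Regions of all 3 drugs had a peak in both Acla libraries at 70.5% and in neither at 9.44%. Of the 3901 Acla regions with no Acla peak, 2.51% were Acla-only, against 25.5% of the 45026 with a peak in both libraries. No control peak had been called at 13164 Acla-only regions (95.1%, interval 94.7 to 95.5), against 92.2% of regions shared with diMe-Doxo only, 92.0% with Doxo only and 88.8% with all 3 drugs. At 160 Acla-only regions both control libraries had one. Each control library held 1 read at 4970 (35.9%), a share near the 34.4% of the whole Acla list. Between log2 folds of 2 and 2.5, a peak in both Acla libraries was called at 79.9% of Acla-only regions, against 61.9% of those shared with diMe-Doxo only and 54.2% of those of all 3 drugs. How many libraries had to show a peak for a region to be counted is not stated in the labels. A region shared with another drug may have been counted through that drug's peaks. The shares with Acla peaks can therefore not be read as a trait of Acla-only regions.

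The Acla-only share of the Acla list varied over the chromosomes, and it was lowest on chromosomes 22, 19 and 17, which are known as gene-rich. It was 6.90% on chromosome 22 (28 of 406 Acla regions, Wilson interval 4.81 to 9.79), 9.81% on chromosome 19 (105 of 1070, 8.17 to 11.7) and 11.6% on chromosome 17 (124 of 1071, 9.80 to 13.6). The highest shares were 27.9% on chromosome 13 (383 of 1371, 25.6 to 30.4), 27.9% on chromosome 18 (327 of 1173, 25.4 to 30.5) and 26.9% on chromosome X (611 of 2272, 25.1 to 28.8), and chromosomes 13 and 18 are known as gene-poor. Chromosome 1 held 1325 Acla-only regions (19.8%) and chromosome 2 held 1423 (23.2%). The groups of chromosomes were chosen after their values were seen. K562 cells are aneuploid, so shares were taken within a chromosome. A region's reads, and so its place in each list, may still depend on copy number, whose part was not tested.

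The difference between chromosomes was also present among regions of like fold. Between log2 folds of 2 and 2.5, 15.3% of 909 Acla regions on chromosomes 17, 19 and 22 were Acla-only, against 48.3% of 1439 on chromosomes 13, 18 and X. The median authors' log2 fold of Acla-only regions was 2.27 on the first group of chromosomes and 2.36 on the second. The regions of chromosomes 17, 19 and 22 that were not Acla-only were mostly shared with Doxo. On chromosome 19, 53.8% of Acla regions were listed for all 3 drugs and 31.1% for Acla and Doxo only, against 40.8% and 5.40% on chromosome 13. Once regions shared with Doxo are set aside, the order of the chromosomes changes. Of Acla regions not listed for Doxo, 48.6% of 28508 were Acla-only over the genome, 65.2% on chromosome 19, 36.4% on chromosome 22, 52.0% on chromosome 13 and 62.3% on chromosome 18.

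**Figure D3:**
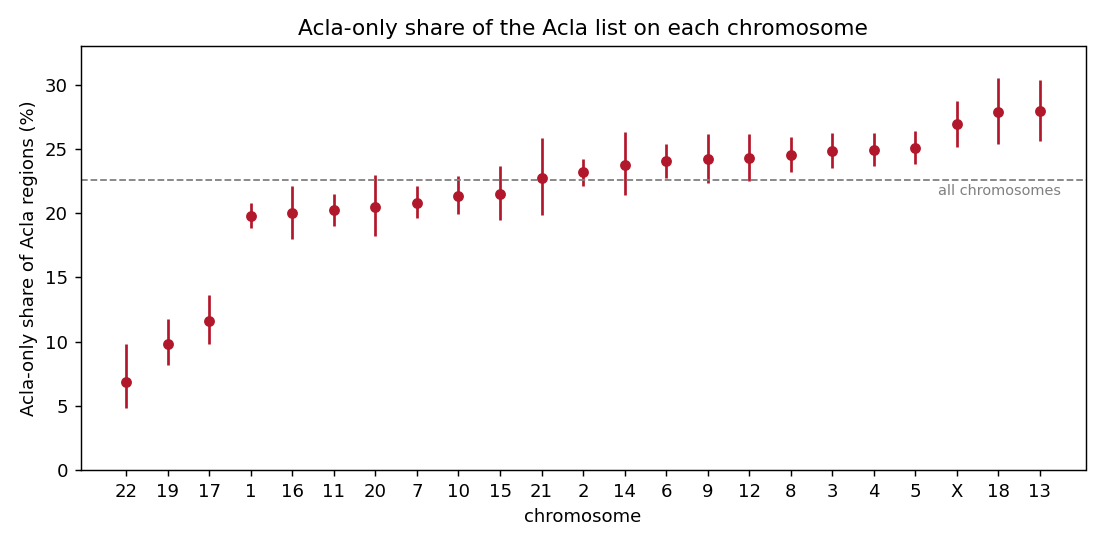
Acla-only share of the Acla regions (%) on chromosomes 1 to 22 and X, ordered by that share, with 95% Wilson intervals as lines that cover counting error only; the dashed line is the share over all chromosomes, 22.6%. Chromosomes 22, 19 and 17 stand at 6.90%, 9.81% and 11.6% and the others between 19.8% and 27.9%.

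Along the chromosomes Acla-only regions gathered in some windows of 1 Mb and were missing from others with many Acla regions. They were present in 2073 of 2848 windows that held a region of any list, with a median of 3 and a highest count of 45, and the 100 windows with the most held 19.2% of them. Chromosome 14 at 98-99 Mb held 45 among 95 Acla, 50 diMe-Doxo and 21 Doxo regions. These 45 had log2 folds from 1.83 to 3.48 (median 2.59), none had a called control peak, and Acla library 1 was the higher at 42. Chromosome 15 at 94-95 Mb held 44 among 95 Acla, 41 diMe-Doxo and 30 Doxo regions, with a median log2 fold of 2.405. Chromosome 1 at 177-178 Mb held 43 among 135 Acla, 86 diMe-Doxo and 52 Doxo regions. Chromosome 12 at 126-127 Mb held 43 among 104, 58 and 35, and chromosome 8 at 136-137 Mb held 40 among 128, 89 and 48 in the same order. In each of these 5 windows Acla had more regions than either other drug. The windows were picked for their Acla-only counts, which favours this order, so nothing is read from it.

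Other windows held many Acla regions but none of Acla alone. Chromosome 1 at 3-4 Mb had 101 Acla regions, 119 diMe-Doxo regions and 131 Doxo regions, and 0 Acla-only ones. Chromosome 11 at 1-2 Mb had 83, 98 and 101 in that order, and chromosome 10 at 134-135 Mb had 80, 105 and 118, both with 0 Acla-only. Chromosome 4 at 8-9 Mb had 80, 115 and 115, and chromosome 7 at 1-2 Mb had 75, 90 and 155, again with 0. These 5 windows were chosen after their values were seen. At the other extreme, among 1321 windows with at least 30 regions in any list, the highest Acla-only share of all regions was 63.4% on chromosome 2 at 123-124 Mb, where 26 of 41 regions were Acla-only. On chromosome 9 the windows at 118-119, 119-120, 120-121 and 121-122 Mb had 54.3%, 39.5%, 55.7% and 54.5%, beside a median of 8.06% over the 1321 windows. Windows with 1 to 9 Acla regions had a pooled Acla-only share of 15.3%, windows with 20 to 29 one of 24.8% and windows with 80 to 150 one of 22.4%. Across the 2848 windows, which share libraries and are not independent, Spearman's rho of the Acla-only count was 0.57 with the count of other Acla regions, 0.50 with diMe-Doxo regions and -0.08 with Doxo regions.

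Acla-only regions were scarce where Doxo had many regions of its own. In the 1031 windows with 0 to 2 regions listed for Doxo alone, 32.8% of 24413 Acla regions were Acla-only (Wilson interval 32.2 to 33.4). The share was 26.7% with 3 to 5 such regions, 19.1% with 6 to 10, 11.98% with 11 to 20 and 6.60% with 21 to 40. In the 135 windows with 41 to 109 it was 3.03% of 3793 (2.53 to 3.63). Acla regions numbered 23.7 per window in the first group of windows, 16.8 in the windows with 11 to 20 Doxo-alone regions and 28.1 in the last group, while Acla-only regions numbered 7.77, 2.01 and 0.852 per window. Between log2 folds of 2 and 2.5 the share was 59.8% in the first group and 4.30% in the last. Among regions with an FDR of at most 0.05 it was 25.9% and 1.70%, and among regions with no called control peak 33.3% and 2.92%. Windows rich in Doxo-alone regions also hold more regions shared with Doxo, which lowers the Acla-only share by construction. Set against Acla regions not listed for Doxo, the Acla-only share was 54.2% of 14762 in the windows with 0 to 2 Doxo-alone regions and 21.8% of 528 in those with 41 to 109. No test was made, since windows share the same libraries.

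**Figure D4:**
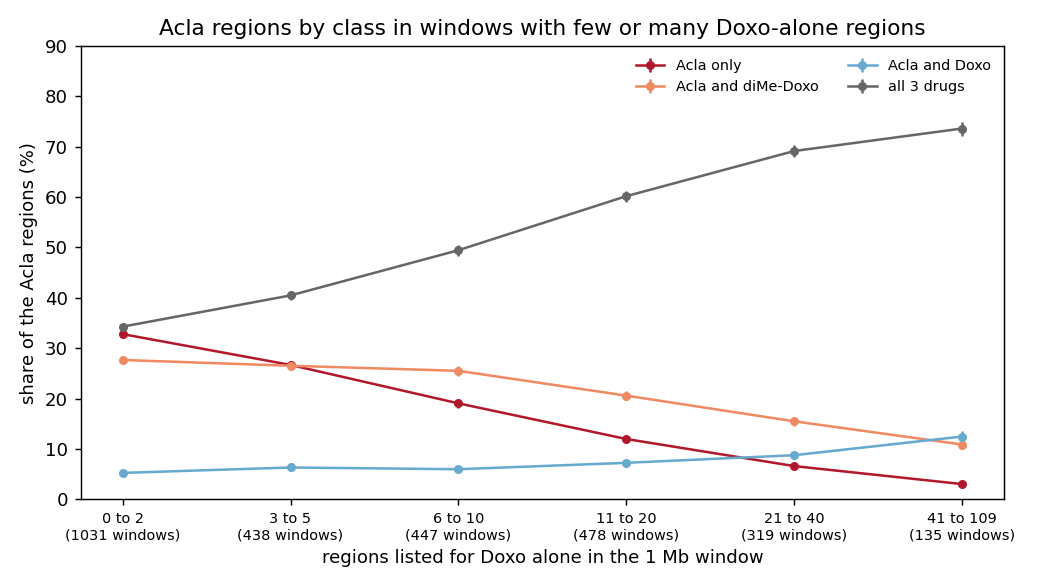
Share of Acla regions (%) that were Acla-only or shared with other lists, in windows of 1 Mb grouped by the number of regions listed for Doxo alone; lines on the points are 95% Wilson intervals. The Acla-only share is 32.8% in windows with 0 to 2 Doxo-alone regions and 3.03% in windows with 41 to 109.

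Acla-only regions lay closer, by the median, to diMe-Doxo than to Doxo regions. The median gap to the nearest diMe-Doxo region was 12.3 kb and to the nearest Doxo region 20.3 kb. Of the 13841, 6630 (47.9%) had a region of either drug within 10 kb, 1521 (10.99%) within 1 kb, and none overlapped one. No Acla-only region overlapped one in part, and control reads were identical at all shared regions, as in lists cut from 1 set of separate regions. In such lists the lack of overlap is fixed in advance, so nothing is read from it. For regions shared with diMe-Doxo only, the gap to another region of the diMe-Doxo or Doxo list had a median of 7.72 kb, and 57.5% had one within 10 kb. The gap from an Acla-only region to the next region of the Acla list itself had a median of 7.64 kb, beside 6.53 kb for regions shared with diMe-Doxo only and 7.105 kb for regions of all 3 drugs. Between 1 Acla-only region and the next Acla-only one it was 25.8 kb.

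In order along the genome, 6757 Acla-only regions (48.8%) had regions of the other lists on both sides or a chromosome end, and 3318 (24.0%) stood in runs of 3 or more with no region of a Doxo or diMe-Doxo list between them. The longest runs held 9. One of them covered 52.4 kb on chromosome 6 at 165165919-165218285, another 105 kb on chromosome 9 at 120398869-120503846, within the window noted above, and a further one 138 kb on chromosome 2 at 123280648-123419076, in the window with the highest Acla-only share. The fourth spanned 221 kb on chromosome 15 at 54952485-55173485. The most isolated Acla-only region, chosen after its values were seen, was chromosome 9 at 44174395-44175455, which lay 5434 kb from any region of the other drugs, with 41 and 41 Acla reads and 1 and 1 control reads (authors' log2 fold 2.55, FDR 0.0311). The nearest other region of the Acla list was 5434 kb away too, so this gap is not particular to the other drugs. What the gap reflects was not tested.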

How the data were processed

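For every drug the authors deposited 1 table of gained regions, which has no header. Regions were compared with DiffBind on GRCh37, per the submitters' processing notes. Aligner, peak caller, normalization and test: not given in the sources used here. What each column holds was read from its values. The deposited log2 fold differed from the log2 ratio of the mean signals by at most 0.0064. The p-value and FDR of a region are as deposited by the authors. A library's deposited signal is a read count times 1 factor, and 100% of values in the Acla list were whole reads within 0.1 of a read. The authors also give the count of libraries with a called peak. The Acla list has a highest p of 0.05 and a lowest log2 fold of 1.5.

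Regions were matched on identical coordinates, printed as deposited, whose counting base is not given. Width is end minus start. Named regions were the 5 lowest FDRs, 5 highest folds, 5 highest Acla signals, 3 widest, 5 highest p, 5 lowest folds and 5 fullest windows of 1 Mb, the p and fold limits by example. Wilson intervals (shares) and exact binomial intervals (ratios of reads) are at 95% and cover counting error only. The edgeR quasi-likelihood test with Benjamini-Hochberg adjustment over the whole Acla list was tested on simulated data, with DESeq2 as an alternative. A genome or annotation of GRCh37 was not used here, so no genes, GC content or sequences are given and the planned gene lists were not run. Members and lists were chosen with earlier results of these data known. Software was Python 3.11.15, pandas 2.3.3, numpy 2.4.6, scipy 1.17.1, matplotlib 3.10.9, R 4.3.3, edgeR 4.0.16 and DESeq2 1.42.0.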

Additional observations from a re-analysis of the deposited data

How the results depend on the processing

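The number of Acla-only regions stayed at 13841 when sharing 1 bp counted as the same region. The lists behave as if cut from 1 set of separate regions, in which this number could not have changed, so nothing is read from it. The number was 11283 at a log2 fold of at least 2, 11465 with a peak in both Acla libraries and 12323 without those under 1 kb from another list's region. It was 1491 at an FDR of at most 0.01 and 8763 at an FDR of at most 0.05, a limit added after seeing the data, because fewer regions pass. The FDR and fold limits were applied to Acla-only regions alone, with the Doxo and diMe-Doxo lists uncut. These counts could therefore only fall, and the class under equal limits on all 3 lists was not counted. The median log2 fold ran from 2.05 to 2.74 when a library was left out and was 2.04 with a pseudocount of 1. TMM over the Acla list gave -0.60 (-0.5965) and an edgeR count of 0, since TMM centres a list that holds gained regions only. With TMM, edgeR also called 0 Acla-only regions lower, and at an unadjusted p under 0.05 it had 12, all lower. The edgeR count was 13835, 11985 with DESeq2 (local dispersion fit; 86.6%, against 93.9% of the list) and 13825 after filterByExpr (99.9%, against 99.7%). It ran from 5286 to 11084 when a library was left out, where a group with 1 library is assumed to vary like the other. The lowest came without control replicate 2 (38.2%, against 65.2% of the list), and its cause was not tested. The share with no called control peak was 95.1%, and the share with 1 read in each control library was 35.9%. The share near another list's region was 16.3% within 2 kb, 47.9% within 10 kb and 89.8% within 50 kb. The median width was 655 bp, or 795 bp at an FDR of at most 0.01. The fullest window held 45 at 1 Mb and 30 at 500 kb. At an FDR of at most 0.01 the share of members on a chromosome stayed within its interval on 9 chromosomes and left it on 15. That interval is for all 13841 members and is too narrow for 1491, so no change is read from this. GC content was not run, since no genome of the build was used here. No paired analysis was possible because each group has 1 GEO sample and the libraries carry no shared numbers in the labels. Folds over controls with 1 read have wide counting intervals, and these take the value of 1 as a counted read.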
